A study of Sus scrofa with 6 samples.

Results

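PIGS, PIGT, PIGU, PIGK and GPAA1 encode the subunits of the GPI transamidase, and their RNA was followed here in the abdominal aorta of atherosclerotic and control miniature pigs. They were 5 of the 30477 genes of the expression table, found by gene name, with 1 row each. PIGS was chosen by its FPKM values in these same 6 pigs, which were low in the HFCF group, so its difference is given as a description without a test. Its partners were chosen because they belong to the same complex. The same 5 rows, and no others, carried the GO term for the GPI-anchor transamidase complex, and 1 row of the table was described as PIGS.

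Glycosylphosphatidylinositol (GPI) is a glycolipid that tethers many proteins to the outer face of the cell membrane. It is built step by step on the membrane of the endoplasmic reticulum, and the transamidase then cuts a signal from the end of the new protein and joins the finished anchor in its place. PIGK is the catalytic subunit, a cysteine protease by fold, and PIGT is linked to it by a disulfide bond. GPAA1 and PIGU take part in holding the GPI substrate, and PIGS is a further membrane subunit that the complex needs in order to work. In vessels, GPI-anchored proteins include inhibitors of complement, enzymes that act on extracellular nucleotides, adhesion molecules and glypicans.

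Male Wuzhishan miniature pigs had been fed normal chow (NC group, 3 pigs) or a diet high in fat, cholesterol and fructose (HFCF group, 3 pigs) for 6 months, and total RNA of the abdominal aorta was sequenced as 1 library per pig. The sample labels give an age of 3 to 4 months for both groups, and the methods give an older age at purchase. The values are FPKM, the fragments of a gene relative to its exon length and to the mapped reads of the library. They are per length and can therefore be compared between genes. Depth was known only in relative terms, from 1 to 1.37 with the first NC pig set to 1, so errors rest on the variation between pigs fed alike. The tissue is a mixture of cells, so fewer cells of a type cannot be told apart from less RNA per cell. Summed smooth muscle markers were 15145 to 21336 FPKM in the NC pigs and 7660 to 12401 FPKM in the HFCF pigs, with 4 of 6 markers lower by limma. Summed macrophage markers were 21.6 to 23.8 FPKM and 253.8 to 608.6 FPKM, with 7 of 7 higher. The sums overlapped between the groups for endothelial markers (83.2 to 170.3 against 76.5 to 197.2 FPKM), fibroblast markers (1158 to 2514 against 1551 to 2663 FPKM) and adipocyte markers (35.1 to 258.0 against 66.3 to 92.1 FPKM). Single markers could differ from their sum. LUM, a proteoglycan of fibroblasts, was 1 of 4 fibroblast markers called higher, from 35.6 to 61.8 FPKM in the NC pigs to 154.0 to 200.2 FPKM in the HFCF pigs. Of 5 endothelial markers 0 were called by limma. TEK and KDR were higher at an unadjusted p under 0.05 and without overlap, as the groups of 48.2% of all tested genes were. Of 4 adipocyte markers 0 were called, with 0 at an unadjusted p under 0.05. T cell markers were 0.327 to 0.532 FPKM in the NC pigs and 1.34 to 7.92 FPKM in the HFCF pigs, with 1 of 3 higher. Over all 15384 tested genes, 22.8% were called higher and 6.16% lower by limma at an adjusted p under 0.05.

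PIGS (ENSSSCG00000026706) was measured at 17, 15.7 and 8.10 FPKM in the NC pigs. In the HFCF pigs it was at 0.257, 0.310 and 0.265 FPKM. The third NC pig was lower than the other NC pigs, yet every NC pig was far above every HFCF pig. The lowest NC value was 26.1 times the highest HFCF value, and the group means of 13.6 ± 4.80 and 0.277 ± 0.0285 FPKM (SD, n = 3 each) differed 49.1-fold. On the scale of log2(FPKM + 0.1) the HFCF minus NC difference was -5.11, and it was -5.43 relative to the median of all tested genes. That was the lowest of the 9582 genes with a symbol of their own and a mean of at least 1 FPKM. Ranked among all tested genes within a pig, PIGS stood at percentiles 85.3, 83.8 and 72.2 under normal chow and at 9.92, 13.6 and 12.9 under the HFCF diet. The third NC pig was also the pig with the lowest summed adipocyte markers, at 35.1 FPKM where the other NC pigs had 166.9 and 258.0 FPKM. Its endothelial, fibroblast and smooth muscle sums (83.2, 1158 and 15145 FPKM) were the lowest of the NC group. Its macrophage and T cell sums (23.8 and 0.532 FPKM) were the highest of that group, and its relative depth of 1.37 was the highest of all pigs. The part of these differences in its PIGS value was not tested. The part of the lower smooth muscle and higher macrophage RNA in the levels of PIGS and its partners was not tested either.

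**Figure D1:**
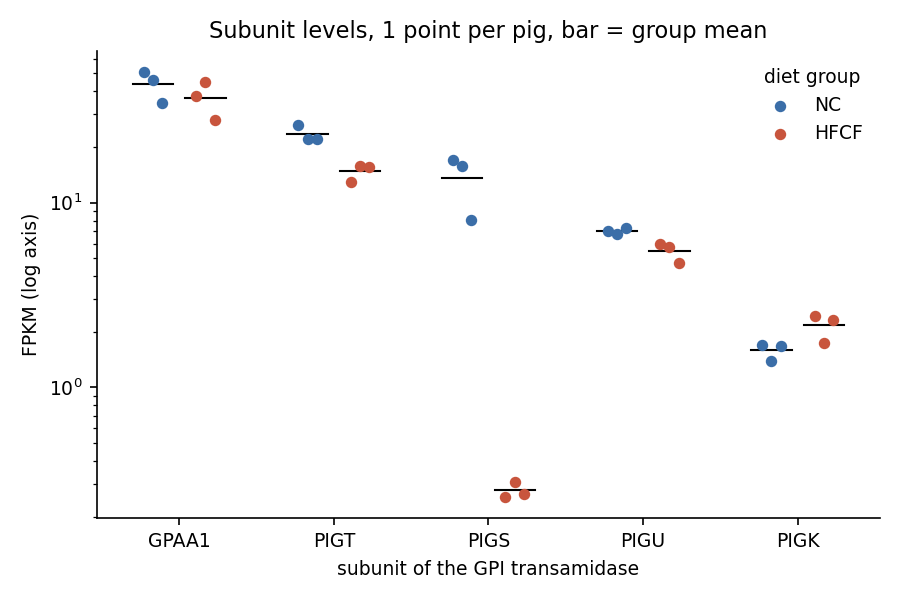
FPKM (log axis) of the 5 subunits of the GPI transamidase, with 1 point per pig, blue for NC, red for HFCF and a bar at the group mean (n = 3). PIGS lay between 8.10 and 17 FPKM in the NC pigs and between 0.257 and 0.310 FPKM in the HFCF pigs, whereas the group means of the partners differed by at most 1.59-fold (PIGT).

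The partner subunits differed far less between the groups. PIGT (ENSSSCG00000021861) was at 26.4, 22 and 22 FPKM in the NC pigs and at 12.9, 15.7 and 15.7 FPKM in the HFCF pigs. The groups did not overlap, and PIGT fell by 0.66 on the log2 scale (SE 0.15, 95% interval -1.03 to -0.30, limma adjusted p = 0.0198). It was the 1 partner of 4 called lower at an adjusted p under 0.05, beside 6.16% of all 15384 tested genes called lower and 28.9% called in either direction, and no partner was called higher, with 0 of 4 higher at an unadjusted p under 0.05. The PIGT call was lost without the first NC pig (-0.58, adjusted p = 0.0693), and over 15 alternatives its adjusted p ranged from 0.00754 to 0.0693.

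PIGU (ENSSSCG00000007282) had 7.0, 6.79 and 7.32 FPKM in the NC pigs and 5.98, 5.73 and 4.71 FPKM in the HFCF pigs. The groups did not overlap, but the log2 difference of -0.36 (SE 0.16, 95% interval -0.75 to 0.02) did not pass the test (limma adjusted p = 0.138). It passed when the libraries were rescaled, with -0.71 and adjusted p = 0.019 after median-ratio scaling. PIGK (ENSSSCG00000038329), the catalytic subunit, had 1.69, 1.39 and 1.68 FPKM in the NC pigs against 2.43, 1.74 and 2.33 FPKM in the HFCF pigs. All HFCF values lay above all NC values, with a log2 difference of 0.42 (SE 0.23, 95% interval -0.13 to 0.96) that did not pass the test (limma adjusted p = 0.214) and turned to -0.19 after quantile normalization. GPAA1 (ENSSSCG00000005912), the most abundant subunit, had 50.9, 45.9 and 34.4 FPKM against 37.6, 44.8 and 28.0 FPKM. Its groups overlapped, with a log2 difference of -0.26 (SE 0.23, 95% interval -0.79 to 0.28, limma adjusted p = 0.427). The log2 differences of 3 of the 4 partners were negative, with a median of -0.31, where the median over all tested genes was 0.32. Groups that did not overlap were found for 3 of 4 partners and for 48.2% of all tested genes. The lowest 95% limit among the partners was the -1.03 of PIGT. PIGS, at -5.11, was chosen for its low HFCF values, so its distance from these intervals is no test.

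The share of PIGS in the complex's summed RNA differed accordingly. PIGS made up 16.5%, 17.1% and 11.0% of the summed FPKM of the 5 subunits in the NC pigs, and this share was 0.434%, 0.453% and 0.519% in the HFCF pigs. The ratio of PIGS to PIGT was 0.643, 0.715 and 0.369 in the NC pigs, and it was 0.02, 0.0197 and 0.0169 in the HFCF pigs. The summed level of the other subunits was 85.9, 76.1 and 65.4 FPKM in the NC pigs and 58.9, 68.0 and 50.7 FPKM in the HFCF pigs, and these ranges overlapped. By group mean the order in the NC group was GPAA1, PIGT, PIGS, PIGU and PIGK, and in the HFCF group it was GPAA1, PIGT, PIGU, PIGK and PIGS. Within each group the values of neighbouring subunits in this order did not overlap, and the order was the same without any single pig and after median-ratio scaling. PIGK, the least abundant subunit in the NC pigs, was thus above PIGS in all 3 HFCF pigs.

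Ratios among the partners, which do not depend on a scaling factor applied to a whole library, were compared for 6 pairs by exact two-sided permutation tests, whose smallest p with 3 against 3 pigs is 0.1. PIGT over PIGK was 13.1 to 15.8 in the NC pigs and 5.29 to 9.04 in the HFCF pigs (exact p = 0.1, adjusted p = 0.3). PIGU over PIGK was 4.14 to 4.87 and 2.02 to 3.29 (exact p = 0.1, adjusted p = 0.3). In both ratios the groups did not overlap, so PIGK stood higher relative to PIGT and PIGU in every HFCF pig. The groups overlapped in the 4 other ratios, with adjusted p-values of 0.36 and 0.8 in exact permutation tests.

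**Figure D2:**
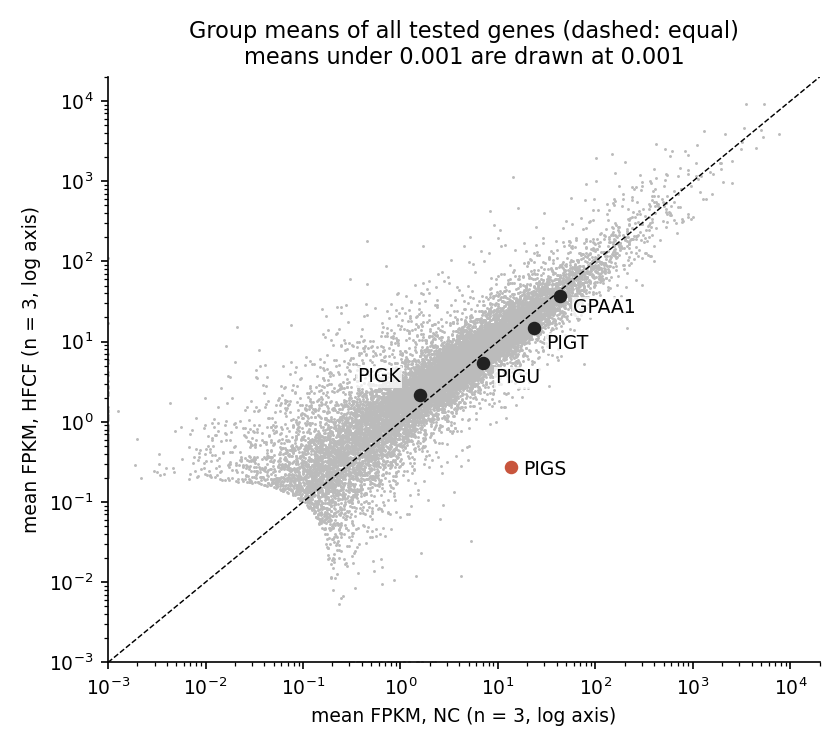
Mean FPKM in the NC group (x axis, log) against mean FPKM in the HFCF group (y axis, log) for the 15384 tested genes in grey, with the partners in black, PIGS in red and a dashed line of equal means. PIGS, at 13.6 and 0.277 FPKM, lies below the main cloud of genes, and the 4 partners lie near the line.

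Few genes showed a gap like that of PIGS. Of 5007 tested genes with at least 5 FPKM in every NC pig, 9 had a lowest NC value of at least 5 times the highest HFCF value, and 2 had at least 10 times, limits chosen after the values were seen. PIGS was 1 of those 2. The other (ENSSSCG00000046707), a protein-coding row with no symbol, was at 68.9, 58.8 and 66.9 FPKM in the NC pigs and listed at 0 in all HFCF pigs. Among the rest were FBXO32, a muscle ubiquitin ligase (gap of 8.90 times), PALLD and MICAL2, which act on the actin cytoskeleton (6.86 and 5.2 times), and the smooth muscle microRNA gene ssc-mir-143 (6.27 times). The others were a mitochondrial tRNA gene (ENSSSCG00000018090, 6.20 times), a protein-coding row with no symbol (ENSSSCG00000017936, 5.93 times) and the microRNA gene ssc-mir-365-2 (5.30 times). In the opposite direction 136 genes met the same limits.

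The genes whose log2 values over the 6 pigs followed PIGS most closely, among 9581 searched, were CREBBP (Pearson r 0.9989), LAMC1 (0.9951), NUP188 (0.9938), AGO2 (0.9928) and EHD4 (0.9922). CREBBP is a histone acetyltransferase, LAMC1 a laminin chain, NUP188 a nuclear pore protein, AGO2 the slicer Argonaute and EHD4 a protein of endosomal recycling. These coefficients mainly reflect the step between the 2 diet groups and carry no test. The steps differed in size, since the NC mean was 1.99 times the HFCF mean for CREBBP, 2.07 times for LAMC1, 1.5 times for NUP188, 1.92 times for AGO2 and 2.15 times for EHD4. CREBBP, the closest, had group means of 24.9 FPKM (NC) and 12.5 FPKM (HFCF).

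The genes beside PIGS on the chromosome were examined to see whether they shared its course. In the Sscrofa11.1 RefSeq table the order of protein-coding genes is FOXN1, UNC119, PIGS, ALDOC and SPAG5, while the methods name an earlier build, so only names are used. UNC119, a trafficking factor for lipid-modified proteins, had 6.38, 6.80 and 4.97 FPKM in the NC pigs and 12.5, 6.27 and 8.55 FPKM in the HFCF pigs (log2 difference 0.54, limma adjusted p = 0.18). ALDOC, a glycolytic aldolase, had 1.82, 0.724 and 2.23 FPKM against 3.03, 3.58 and 3.8 FPKM (log2 difference 1.2, SE 0.40, limma adjusted p = 0.06). The ALDOC groups did not overlap, as in 48.2% of all tested genes, and every HFCF pig was higher, opposite to PIGS. ALDOC was called in 1 of 15 alternatives, without the third NC pig (1.5, limma adjusted p = 0.0447). Over the 15 alternatives its adjusted p ranged up to 0.296.

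SPAG5, a mitotic spindle protein, had 0.528, 0 and 0.264 FPKM against 1.87, 0.479 and 0 FPKM (log2 difference 0.77, limma adjusted p = 0.643), and its direction turned without the first HFCF pig (-0.24). FOXN1, a transcription factor of thymic epithelium, was listed at 0 in all 6 pigs. Of the 3 neighbours tested with limma, 0 were called and 1 had an unadjusted p under 0.05, and all 3 log2 differences were positive. The PIGS row covers 2 annotated transcripts, and the gene values do not show which exons the reads fell on. Strand was not given in the sources used here, so reads from overlapping genes cannot be told apart.

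**Figure D3:**
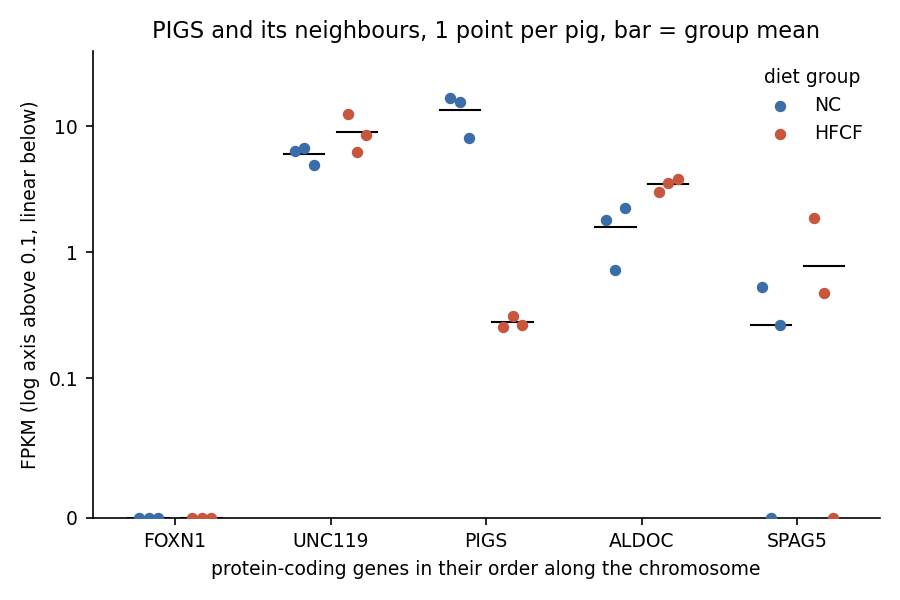
FPKM (log axis above 0.1, linear below) of PIGS and the protein-coding genes on each side of it, in their order in Sscrofa11.1, with 1 point per pig, blue for NC, red for HFCF and a bar at the group mean (n = 3). The HFCF means of UNC119 and ALDOC lie above their NC means, unlike those of PIGS, and FOXN1 is listed at 0.

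Among the genes that build the anchor before the transamidase acts, several rose. Of 22 genes on the list, 19 were found in the table and tested, and by limma 8 were higher and 0 lower after the HFCF diet (42.1% higher, beside 22.8% of all tested genes), with 1 lower at an unadjusted p under 0.05. By the thresholds of the study, a ratio of group means above 2 or under 0.5 with an unadjusted p under 0.05, which 25.5% of all tested genes met, 4 were higher and 1 was lower. The median log2 difference of the synthesis genes was 0.58, against 0.32 over all tested genes. Scaling matters for this split. Over all genes the calls were 3505 higher and 948 lower as deposited, 2033 and 1968 after median-ratio scaling, 1748 and 1782 after quantile normalization and 2229 and 1527 after rescaling to TPM, with the median of all genes moving from 0.32 to -0.00, -0.07 and 0.09. Under each of these 3 scalings 5 synthesis genes were higher and 2, PIGA and PIGV, were lower.

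The synthesis starts with transfer of N-acetylglucosamine to phosphatidylinositol by an enzyme of several subunits. PIGA, its catalytic subunit, had 4.17, 3.74 and 1.93 FPKM in the NC pigs and 1.46, 1.15 and 1.98 FPKM in the HFCF pigs. The third NC pig was at the level of the HFCF pigs, so the groups overlapped, and the log2 difference of -1.01 did not pass the test (limma adjusted p = 0.0681). PIGH, another subunit, rose from 4.63, 3.82 and 5.57 FPKM to 8.08, 6.29 and 7.96 FPKM (log2 difference 0.67, limma adjusted p = 0.0476), a call kept in 3 of 15 alternatives. PIGC, at 43.7 to 46.5 FPKM in the NC pigs and 38.4 to 45.4 FPKM in the HFCF pigs, had a log2 difference of -0.08 (limma adjusted p = 0.681). CLPTM1L, a scramblase that moves an early intermediate across the membrane, rose by 0.58 on the log2 scale (limma adjusted p = 0.0343), a call kept in 5 of 15 alternatives.

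The mannoses of the anchor are donated by dolichol phosphate mannose, and the 3 tested genes of its supply were all higher. DPM1, the catalytic subunit of its synthase, rose from 6.84, 6.35 and 6.95 FPKM to 12.7, 16.3 and 11.1 FPKM (log2 difference 0.97, limma adjusted p = 0.00961). DPM2, which stabilises DPM1, rose from 2.61, 2.86 and 2.26 FPKM to 6.65, 6.49 and 7.49 FPKM (1.38, adjusted p = 0.00292). MPDU1, needed for use of the donor, rose from 8.20, 7.11 and 8.54 FPKM to 21.7, 13.4 and 16.6 FPKM (1.08, adjusted p = 0.0103). The groups were apart in each of these genes and each call was kept in 15 of 15 alternatives. The same donor serves other kinds of glycosylation.

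PIGB, which adds the third mannose, changed most among the synthesis genes. It had 0.990, 1.3 and 1.02 FPKM in the NC pigs and 6.56, 6.75 and 9.36 FPKM in the HFCF pigs (log2 difference 2.66, SE 0.23, limma adjusted p = 0.000903). Every HFCF pig was thus above every NC pig, and the call was kept in 15 of 15 alternatives. PIGV, which adds the second mannose, had 8.53, 6.82 and 7.67 FPKM in the NC pigs and 4.69, 6.09 and 6.4 FPKM in the HFCF pigs (-0.42, adjusted p = 0.132). Its groups did not overlap, and it was called lower in the 3 rescaled fits.

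Ethanolamine phosphate groups are added by PIGN, PIGO and PIGG, and the protein is joined through the group that PIGO adds. PIGF, the partner of PIGO and PIGG, rose from 2.01, 3.5 and 2.78 FPKM to 10.3, 7.55 and 7.49 FPKM (log2 difference 1.59, limma adjusted p = 0.00563), a call kept in 15 of 15 alternatives. PIGG had 2.71, 2.55 and 3.27 FPKM against 4.71, 4.35 and 4.73 FPKM (0.68, adjusted p = 0.0311), a call kept in 6 of 15 alternatives. PIGO varied widely within both groups, from 0.151 to 3.28 FPKM in the NC pigs and from 0.895 to 2.92 FPKM in the HFCF pigs, and its difference of 1.28 did not pass (adjusted p = 0.349). PIGN had a log2 difference of -0.11 (adjusted p = 0.829).

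**Figure D4:**
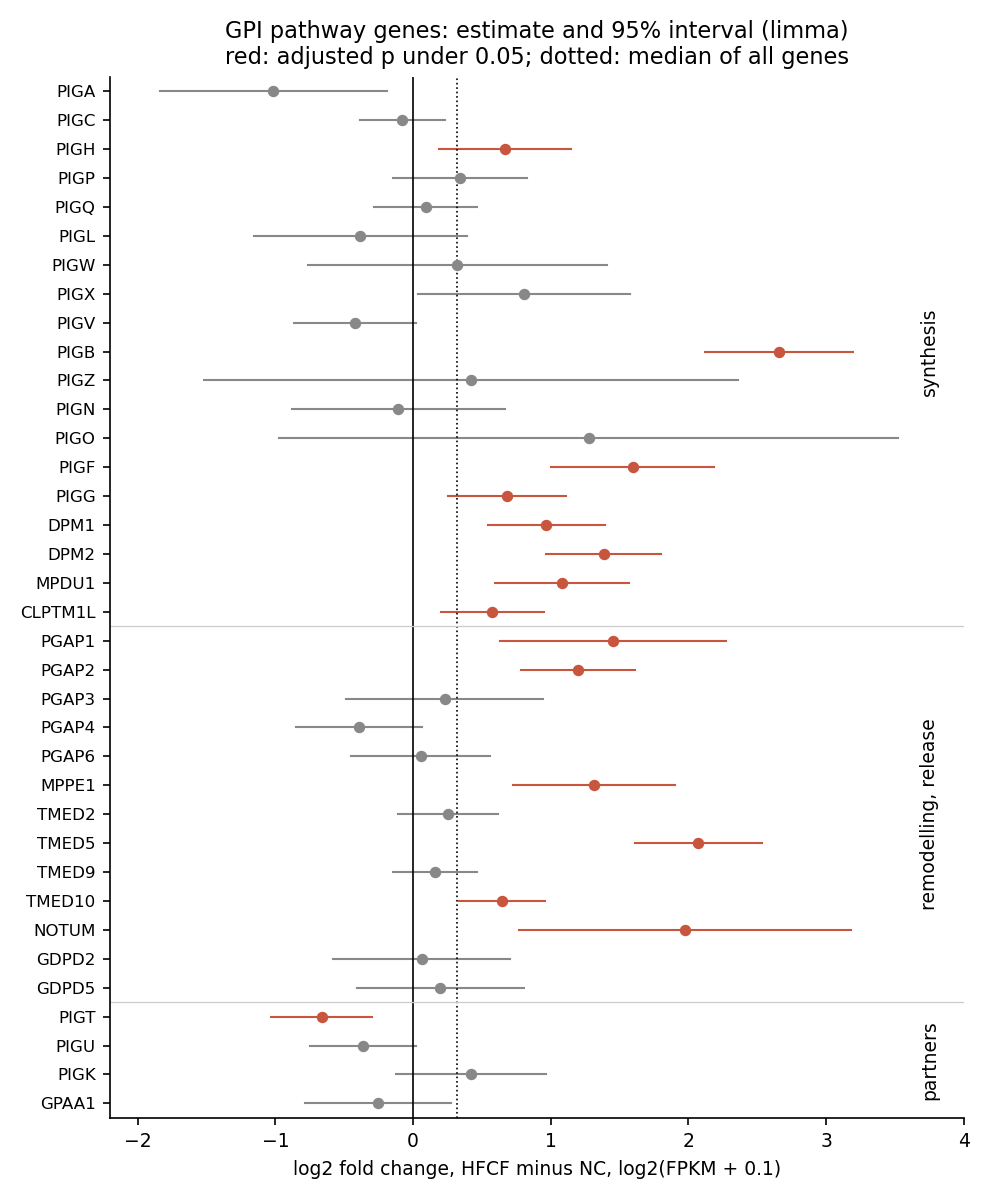
Log2 difference, HFCF minus NC, on the scale of log2(FPKM + 0.1), with its 95% interval from limma, for the 19 synthesis genes, 13 remodelling and release genes and 4 partner subunits tested. Red marks an adjusted p under 0.05 and the dotted line the median of all genes (0.32). PIGT is the red point left of 0, and PIGB has the highest estimate.

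After attachment, the anchor is remodelled and p24 proteins load the protein for export. Of 13 tested genes of remodelling and release, 6 were higher and 0 lower by limma (46.2% higher, beside 22.8% of all tested genes), with 0 lower at an unadjusted p under 0.05 and a median log2 difference of 0.25. The split was 5 and 1 after median-ratio scaling, 4 and 1 after quantile normalization and 5 and 0 after rescaling to TPM, with PGAP4 as the lower gene. NOTUM, called higher, had an NC mean of 0.0117 FPKM and passed the filter only through its HFCF values. With a filter at a mean of at least 1 FPKM, 4 genes were higher and 0 lower, beside 2997 higher and 893 lower of 11121 tested genes. TMED5, a p24 protein, rose from 1.74, 2.12 and 2.12 FPKM to 10.1, 8.63 and 7.46 FPKM (log2 difference 2.07, limma adjusted p = 0.00116). The more abundant TMED10 rose from 28.0, 31.8 and 33.3 FPKM to 50.2, 49.5 and 45.7 FPKM (0.64, adjusted p = 0.0132), a call kept in 12 of 15 alternatives. TMED2 and TMED9, of the same family, had differences of 0.25 and 0.16 that did not pass the test (adjusted p = 0.258 and 0.385).

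Of the remodelling enzymes, PGAP2, which takes part in fatty acid exchange on the anchor, rose from 3.79, 4.60 and 4.27 FPKM to 11.2, 9.80 and 8.54 FPKM (1.2, limma adjusted p = 0.00438). MPPE1, which removes a side group, rose by 1.31 (adjusted p = 0.0102), and PGAP1, which removes an acyl chain from the inositol, rose by 1.45 (adjusted p = 0.0216) at levels of at most 1.04 FPKM. The PGAP1 call was kept in 9 of 14 alternatives and was lost after quantile normalization (0.90, adjusted p = 0.0749) and without the first or second NC pig or the second HFCF pig (adjusted p from 0.058 to 0.0736). NOTUM, a secreted esterase best known for inactivating Wnt proteins, was at 0, 0 and 0.0352 FPKM in the NC pigs and 0.702, 0.150 and 0.310 FPKM in the HFCF pigs (1.97, adjusted p = 0.0285). The NOTUM call was kept in 7 of 13 alternatives, with log2 differences from 0.44 to 4.32 that depend on the pseudocount at so low a level. It was lost without any 1 of the NC pigs or the third HFCF pig (adjusted p from 0.0528 to 0.0916), and without the first HFCF pig the gene was below the filter. The 7 genes not called had differences from -0.39 to 0.25. GPLD1, a phospholipase that releases anchored proteins, was below the filter on low values.

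The oligosaccharyltransferase (OST), which adds N-glycans, served as another enzyme of several subunits in the same membrane. Of 11 tested genes, 4 were higher and 0 lower by limma (36.4% higher, beside 22.8% of all tested genes), with 6 higher and 0 lower at an unadjusted p under 0.05 and a median log2 difference of 0.47. After median-ratio scaling the split was 2 and 2, after quantile normalization 2 and 0, and after rescaling to TPM 2 and 1. TMEM258, a small accessory subunit, rose from 14.7, 11.8 and 12.9 FPKM to 42.5, 40.3 and 46.0 FPKM (1.71, limma adjusted p = 0.000903), MAGT1 by 1.28 (adjusted p = 0.00502), DAD1 by 0.69 (adjusted p = 0.0175) and STT3B, a catalytic subunit, by 0.66 (adjusted p = 0.0186). The calls of DAD1 and STT3B were each kept in 8 of 15 alternatives and were lost under all 3 rescalings (adjusted p from 0.0897 to 0.171 for DAD1 and from 0.0586 to 0.16 for STT3B). The lowest difference in OST was the -0.23 of DDOST (adjusted p = 0.268). Differences in OST thus ran from -0.23 to 1.71, where those of the transamidase partners ran from -0.66 to 0.42 and that of PIGS was -5.11.

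The clients of the transamidase, the GPI-anchored proteins, were called higher about as often as all tested genes at an adjusted p under 0.05, though not at the thresholds of the study. Of 91 genes on the list, 87 were found and 69 passed the filter on low values, and 17 were higher and 1 was lower by limma (24.6% higher, beside 22.8% of all tested genes). Their median log2 difference was 0.31, close to the 0.32 of all tested genes. At the thresholds of the study 25 of the 69 were called, 23 higher and 2 lower, beside the 25.5% of all tested genes. The calls at an adjusted p under 0.05 were 11 higher and 2 lower after median-ratio scaling, 11 and 3 after quantile normalization and 11 and 2 after rescaling to TPM. With a filter at a mean of at least 1 FPKM they were 12 higher and 1 lower, beside 2997 and 893 of 11121 tested genes. That mean is taken over both groups, and CD48, TREH, CPM and EFNA2, among the 12, passed only through their HFCF values. VNN1, an ectoenzyme among the 17, had an NC mean of 0.0179 FPKM and likewise passed the filter at 0.1 FPKM only through its HFCF values. By the role given in the list, 5 of 9 leukocyte surface genes and 5 of 16 ectoenzymes were higher. Of adhesion or guidance genes 4 of 23 were higher, and of signalling co-receptors 1 of 9. The leukocyte surface genes called were CD14, CD48, BST2, FOLR1 and CD109, and which cells expressed them here was not measured. Of 5 glypicans 0 were called by limma, with 1 at an unadjusted p under 0.05, and of 2 complement regulators likewise 0, with 1.

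The largest rise was that of CD48, a leukocyte adhesion receptor, from 0.490, 0.774 and 1.02 FPKM to 33.5, 15.1 and 10.8 FPKM (log2 difference 4.41, SE 0.45, limma adjusted p = 0.00146). TREH, trehalase, rose by 3.61 (limma adjusted p = 0.0095) and CPM, carboxypeptidase M, by 3.57 (limma adjusted p = 0.00964). EFNA2, an ephrin ligand, rose by 3.40 (limma adjusted p = 0.00159). The NC means of TREH, CPM and EFNA2 were 0.138, 0.302 and 0.553 FPKM, and that of CD48 was 0.763 FPKM. These genes reached a mean of 1 FPKM only through their HFCF values. With a pseudocount of 1 the log2 differences were 1.82 for TREH, 2.11 for CPM, 2.32 for EFNA2 and 3.42 for CD48. NT5E, the enzyme CD73 that makes adenosine, rose from 2.0, 1.93 and 3.11 FPKM to 52.6, 14.9 and 13.3 FPKM (3.20, adjusted p = 0.00618). In CD48, TREH, CPM, EFNA2 and NT5E the first HFCF pig was the highest. It also had the highest summed macrophage markers, at 608.6 FPKM where the other HFCF pigs had 271.5 and 253.8 FPKM. Its T cell, endothelial and adipocyte sums were the highest of the HFCF group as well, at 7.92, 197.2 and 92.1 FPKM. Its smooth muscle and fibroblast sums were the lowest, at 7660 and 1551 FPKM. The part of macrophage RNA or of RNA from other cells in these rises was not tested. Without the genes listed as leukocyte surface, a split made after the values were seen, 12 of 60 genes were higher and 1 lower. Of all tested genes 22.8% were called higher and 6.16% lower.

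The 1 GPI-anchored gene called lower was HYAL2, a hyaluronidase, with 66.9, 83.1 and 31.1 FPKM in the NC pigs and 21.3, 25.7 and 21.5 FPKM in the HFCF pigs (log2 difference -1.29, limma adjusted p = 0.0322), a call kept in 8 of 15 alternatives. As in PIGS and PIGA, the third NC pig was the lowest of its group. The 4 listed genes with the highest NC means, chosen after their values were seen, were HYAL2, CDH13, CD59 and THY1. CDH13, T-cadherin, had 71.6, 58.2 and 75.8 FPKM against 71.3, 77.2 and 48.5 FPKM (-0.08, adjusted p = 0.802). CD59, which blocks the membrane attack complex, had 52.8, 86.8 and 41.7 FPKM against 62.8, 42.0 and 55.7 FPKM (-0.12, adjusted p = 0.775). In both genes the groups overlapped. THY1, a surface protein of stromal cells and T cells, rose from 36.9, 34.5 and 38.9 FPKM to 116.8, 145.8 and 117.8 FPKM (1.78, SE 0.14, adjusted p = 0.000797), with every HFCF pig above every NC pig. RNA levels of GPI-anchored genes do not show how much protein carried an anchor, which was not measured.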

How the data were processed

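RNA-Seq data of abdominal aorta from 3 NC and 3 HFCF pigs were used. The authors trimmed paired-end reads with cutadapt 1.9, used HISAT2 for alignment and StringTie for assembly, and deposited FPKM values of 30477 genes. A value of 0.0001 was read as 0. FPKM is relative to the library it comes from, so a large rise of some genes lowers the others. The FPKM sums were 272207 to 287141 in the NC pigs and 330222 to 338690 in the HFCF pigs. Read counts were not used here, so depth was estimated only in relative terms, from the steps between values under 0.3 FPKM.

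Values were analysed as log2(FPKM + 0.1), a scale that understates the change of low genes, keeping the 15384 genes whose mean reached 0.1 FPKM. A linear model with diet alone was fitted in limma 3.58.1 (R 4.3.3), with eBayes variances following a trend, and p-values were adjusted over all of these genes by Benjamini-Hochberg. Genes were called at an adjusted p under 0.05, and the code was tested on simulated data. The thresholds of the study (ratio of means over 2 or under 0.5, unadjusted p under 0.05) served as an alternative.

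The members and all lists were chosen with earlier results of these data known. Of 144 genes on 5 lists (subunits, synthesis, remodelling and release, OST and GPI-anchored proteins), 136 were matched by name, gene ID or description. Named genes were the subunits, the neighbours within 2 places of PIGS, the 5 genes that followed PIGS most closely, list members by step, and up to 5 called GPI-anchored genes per direction with a mean of at least 1 FPKM. Further alternatives were a pseudocount of 1 or 0.01, no filter or a mean of at least 1 FPKM, median-ratio scaling, quantile normalization, TPM, no trend, a replicate block and each pig left out.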

Additional observations from a re-analysis of the deposited data

How the results depend on the processing

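PIGS was lower in the HFCF group in all 15 alternatives, with log2 differences from -5.65 to -3.45, the last with a pseudocount of 1, which damps the change of low values by construction. Since PIGS was chosen for this difference, its direction here is a description and adds no support. PIGT without single pigs lay between -0.71 and -0.57 and lost its call without the first NC pig. PIGU was called after median-ratio scaling (-0.71), quantile normalization (-0.72) and rescaling to TPM (-0.63). PIGK turned to -0.19 after quantile normalization, and GPAA1 was called in 0 of 15 alternatives. Without single pigs, ALDOC lay between 0.75 and 1.5, SPAG5 between -0.24 and 1.91, CD59 between -0.36 and 0.17 (0.17 without the second NC pig and 0.04 without the second HFCF pig) and CDH13 between -0.21 and 0.12 (0.12 without the third HFCF pig). Without single pigs the synthesis calls numbered 5 to 8, at 5 without the second NC pig or the first or second HFCF pig, and the OST calls 2 to 5, at 2 without the first or second NC pig or the second HFCF pig. Calls over all genes fell as well, from 3505 higher and 948 lower to 1979 to 2815 higher and 442 to 786 lower. OST calls were also 2 after quantile normalization. With the thresholds of the study 5 synthesis genes (4 higher, 1 lower) and 2 OST genes were called, beside 25.5% of all tested genes. Same-numbered pigs were not paired by the labels and did not deviate together (r of 0.0206, -0.0795 and -0.0724 across genes). With a replicate block PIGT kept -0.66 with an adjusted p of 0.0687, 5 synthesis and 3 remodelling and release genes were called, and calls over all genes were 2232 higher and 540 lower. The cause of these shifts was not tested. A list of 17 synthesis genes from the deposited KEGG pathway, chosen after the data were seen, gave 6 higher and 0 lower, beside 22.8% of all tested genes called higher. With 3 pigs a group and only relative depth known, differences within the intervals given could not be detected.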
